A study of Homo sapiens with 2 samples.

Results

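The replication-dependent histone genes were taken as the protein-coding RefSeq genes of GRCh38.p14 whose symbols name a member of the H1, H2A, H2B, H3 or H4 cluster families (H1-1 to H1-6, H2AC, H2BC, H3C and H4C followed by a number). This rule gave 69 of 20052 protein-coding genes, of which 55 lay on chromosome 6, 13 on chromosome 1 and 1, H4C16, on chromosome 12. They were 6 H1, 17 H2A, 18 H2B, 13 H3 and 15 H4 genes. Their median length was 494 bp, against 24098 bp over all protein-coding genes, and 61 of them were no longer than 1 kb.

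Histones package DNA. The core histones H2A, H2B, H3 and H4 form the nucleosome, and the linker histone H1 binds the DNA between nucleosomes. The replication-dependent genes are short, lack introns and are switched on together in S phase, when new DNA has to be packaged. Their messenger RNAs end in a stem-loop in place of a poly(A) tail. Most of them sit in dense clusters on chromosomes 1 and 6, where NPAT and FLASH, encoded by CASP8AP2, gather in histone locus bodies, and many H2A and H2B genes are transcribed away from each other from a shared promoter.

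The cells were TFK-1, an established human line from a cancer of the extrahepatic bile duct. The LV-HOXA5 cells carried a lentivirus for HOXA5, a homeobox transcription factor, with a Flag tag, and the LV-HOXA5-NC cells carried the control lentivirus. Both were selected with puromycin and profiled by CUT & Tag, in which an antibody, here anti-Flag, brings a transposase to its target so that nearby DNA is cut and sequenced. There was 1 library per condition, from 1000000 cells each, so differences between the conditions have no replicate check, and HOXA5 was measured as an overexpressed, tagged protein. The tables hold peaks and no expression, so the cell type was not checked against marker genes. The LV-HOXA5 library had 15778555 fragments and 8043 peaks, and the LV-HOXA5-NC library had 1948734 fragments and 635 peaks. At HOXA5 itself, LV-HOXA5 had a peak 7 bp from an end of the gene with a pileup of 44 (fragments that cover the peak summit), and LV-HOXA5-NC had none within 1 kb. Fragments of the viral copy and of the gene were not told apart there.

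The upstream sequences of 9 histone genes are shown, 1 for each peak that met the window from 250 bp before to 50 bp after a known gene start, so that the DNA under the peaks can be read. They are ordered by the fold enrichment of the peak over its local background, from H3C6 to H4C14. The peak covered all of the stretch shown at H3C6, H2BC5, H2BC18, H2BC15, H4C8 and H2BC12, and 149 of 243 bases at H2BC13, 203 of 250 at H3C2 and 50 of 250 at H4C14. H2BC15 and H2BC13 share the stretch with an H2A gene that faces away from them. The stretch at H2BC12 borders the H2A gene H2AC12, whose strand was not known. Each sequence runs 5′ to 3′ towards the start of the gene, is taken from RefSeq on GRCh38.p14 and stops short of any neighbouring histone gene. Capitals mark matches, on either strand, to the TATA box TATAAA, the CCAAT box CCAAT, the octamer ATTTGCAT and the homeodomain core TAAT.
H3C6 (chr6:26223928-26224177, plus strand): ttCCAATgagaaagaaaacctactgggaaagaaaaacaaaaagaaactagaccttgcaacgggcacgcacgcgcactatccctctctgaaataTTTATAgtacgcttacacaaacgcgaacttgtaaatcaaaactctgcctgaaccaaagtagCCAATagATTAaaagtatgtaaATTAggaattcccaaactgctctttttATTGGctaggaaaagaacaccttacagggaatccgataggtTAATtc
H2BC5 (chr6:26157871-26158120, plus strand): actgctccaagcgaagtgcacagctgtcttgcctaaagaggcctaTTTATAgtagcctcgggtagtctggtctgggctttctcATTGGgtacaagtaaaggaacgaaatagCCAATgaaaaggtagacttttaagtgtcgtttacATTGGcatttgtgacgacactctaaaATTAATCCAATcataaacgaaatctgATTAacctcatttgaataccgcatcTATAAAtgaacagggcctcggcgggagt
H2BC18 (chr1:149812371-149812620, minus strand): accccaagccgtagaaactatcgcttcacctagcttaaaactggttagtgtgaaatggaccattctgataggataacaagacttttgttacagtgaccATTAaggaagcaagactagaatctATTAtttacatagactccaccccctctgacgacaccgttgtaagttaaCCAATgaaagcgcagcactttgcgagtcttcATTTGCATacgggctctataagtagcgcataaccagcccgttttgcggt
H2BC15 (chr6:27838376-27838568, plus strand): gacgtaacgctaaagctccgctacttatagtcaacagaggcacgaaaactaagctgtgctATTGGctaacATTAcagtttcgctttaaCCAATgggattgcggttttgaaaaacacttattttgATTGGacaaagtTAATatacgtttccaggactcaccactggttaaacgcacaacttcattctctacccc
H2BC13 (chr6:27807930-27808172, minus strand): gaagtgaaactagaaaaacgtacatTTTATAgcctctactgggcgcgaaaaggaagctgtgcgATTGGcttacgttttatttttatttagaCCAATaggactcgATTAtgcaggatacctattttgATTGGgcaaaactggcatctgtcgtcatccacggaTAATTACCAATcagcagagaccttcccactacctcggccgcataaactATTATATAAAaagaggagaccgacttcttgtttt
H3C2 (chr6:26032100-26032349, minus strand): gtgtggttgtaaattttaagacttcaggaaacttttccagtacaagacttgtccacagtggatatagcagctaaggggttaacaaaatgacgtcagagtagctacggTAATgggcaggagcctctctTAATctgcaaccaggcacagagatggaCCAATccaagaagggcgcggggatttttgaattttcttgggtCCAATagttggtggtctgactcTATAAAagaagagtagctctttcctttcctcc
H4C8 (chr6:26285535-26285784, minus strand): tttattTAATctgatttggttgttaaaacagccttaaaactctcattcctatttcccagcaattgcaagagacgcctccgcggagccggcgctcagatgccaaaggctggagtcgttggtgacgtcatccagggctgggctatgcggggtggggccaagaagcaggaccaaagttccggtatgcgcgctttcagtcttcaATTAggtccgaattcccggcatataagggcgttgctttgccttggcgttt
H2BC12 (chr6:27146859-27147105, minus strand): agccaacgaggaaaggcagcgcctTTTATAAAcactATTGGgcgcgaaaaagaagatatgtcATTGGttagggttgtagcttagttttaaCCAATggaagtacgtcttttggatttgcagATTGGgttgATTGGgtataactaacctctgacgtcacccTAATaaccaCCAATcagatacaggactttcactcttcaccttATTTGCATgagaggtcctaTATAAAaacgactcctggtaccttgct
H4C14 (chr1:149832407-149832656, plus strand): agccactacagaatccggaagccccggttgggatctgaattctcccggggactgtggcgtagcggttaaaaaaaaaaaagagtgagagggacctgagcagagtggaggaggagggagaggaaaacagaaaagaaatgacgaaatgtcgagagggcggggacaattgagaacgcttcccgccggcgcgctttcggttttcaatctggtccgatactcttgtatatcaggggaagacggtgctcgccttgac

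Peaks of LV-HOXA5 lay within 1 kb of an end in 21 of the 69 histone genes (30.4%, exact 95% binomial interval 19.9% to 42.7%). Over all 20052 protein-coding genes the share was 13.0%. Among the 537 protein-coding genes no longer than 1 kb it was 8.19%, against 16 of the 61 histone genes of that length (26.2%). The 537 include these 61, which raises the share they are set against. The 8 longer histone genes included 5 with a peak, H2BC18, H2BC21, H2BC5, H3C6 and H2BC12. Their ends are those of the longer RefSeq models, and whether the short replication-dependent transcripts share them was not checked. The other protein-coding genes between the outermost histone genes of chromosome 6 and of the larger group on chromosome 1 numbered 22, among them butyrophilin, SLC17 and zinc finger genes, and 1 of them, HMGN4, had a peak (4.55%). Neighbouring histone genes share peaks, so the interval treats as independent what is not. Only 13 different peaks lay at the 21 genes. Of these, 8 lay within 1 kb of 2 histone genes each, which accounts for 16 of the 21. With the 1 kb windows around gene ends merged where they overlapped, 13 of 47 histone regions had a peak (27.7%, interval 15.6% to 42.6%), against 6.10% of 34250 regions around all protein-coding ends. The regions are not alike, since both ends of a short histone gene fall in 1 region and those of a longer gene in separate ones, which lowers the background share by construction. A peak that covered a gene end was found in 10 histone genes (14.5%), against 6.69% of all protein-coding genes. No test was made of these differences.

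**Figure D1:**
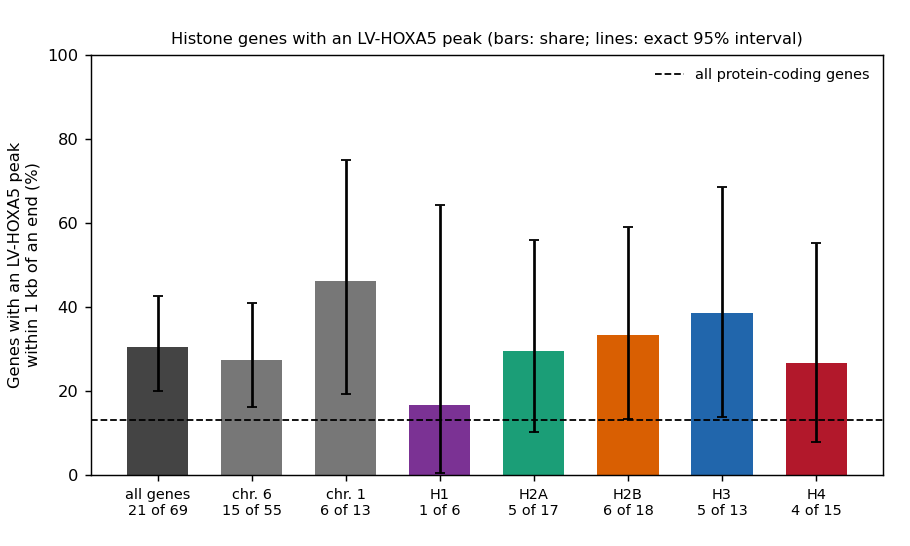
Percentage of histone genes within 1 kb of a peak in LV-HOXA5, for all 69 genes, on chromosomes 6 and 1 and by histone type. Bars are shares, vertical lines are exact 95% binomial intervals and the dashed line is the 13.0% of all protein-coding genes. The intervals of the histone types overlap one another widely.

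By chromosome, 15 of 55 genes on chromosome 6 had a peak (27.3%, interval 16.1% to 41.0%) and 6 of 13 on chromosome 1 (46.2%, interval 19.2% to 74.9%). Over all protein-coding genes of these chromosomes, the shares were 10.4% and 11.3%. The intervals of both clusters overlap, and they treat genes that share a peak as independent. A difference between the clusters was not tested. With genes grouped where neighbours lay at most 500 kb apart, the genes with a peak were 9 of 34 from H2AC1 to H4C8, 2 of 5 from H2BC11 to H2AC12 and 4 of 16 from H2BC13 to H2BC17 on chromosome 6. On chromosome 1 they were 6 of 11 from H2BC18 to H2AC21. None lay in the small groups outside these clusters. H2AC25 and H2BC26 on chromosome 1 were 98647 and 97962 bp from the nearest peak, and H4C16 was 32380 bp from it. By type, a peak lay at 1 of 6 H1 genes, 5 of 17 H2A, 6 of 18 H2B, 5 of 13 H3 and 4 of 15 H4 genes. The shares ran from 16.7% for H1 to 38.5% for H3, and their intervals overlapped.

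**Figure D2:**
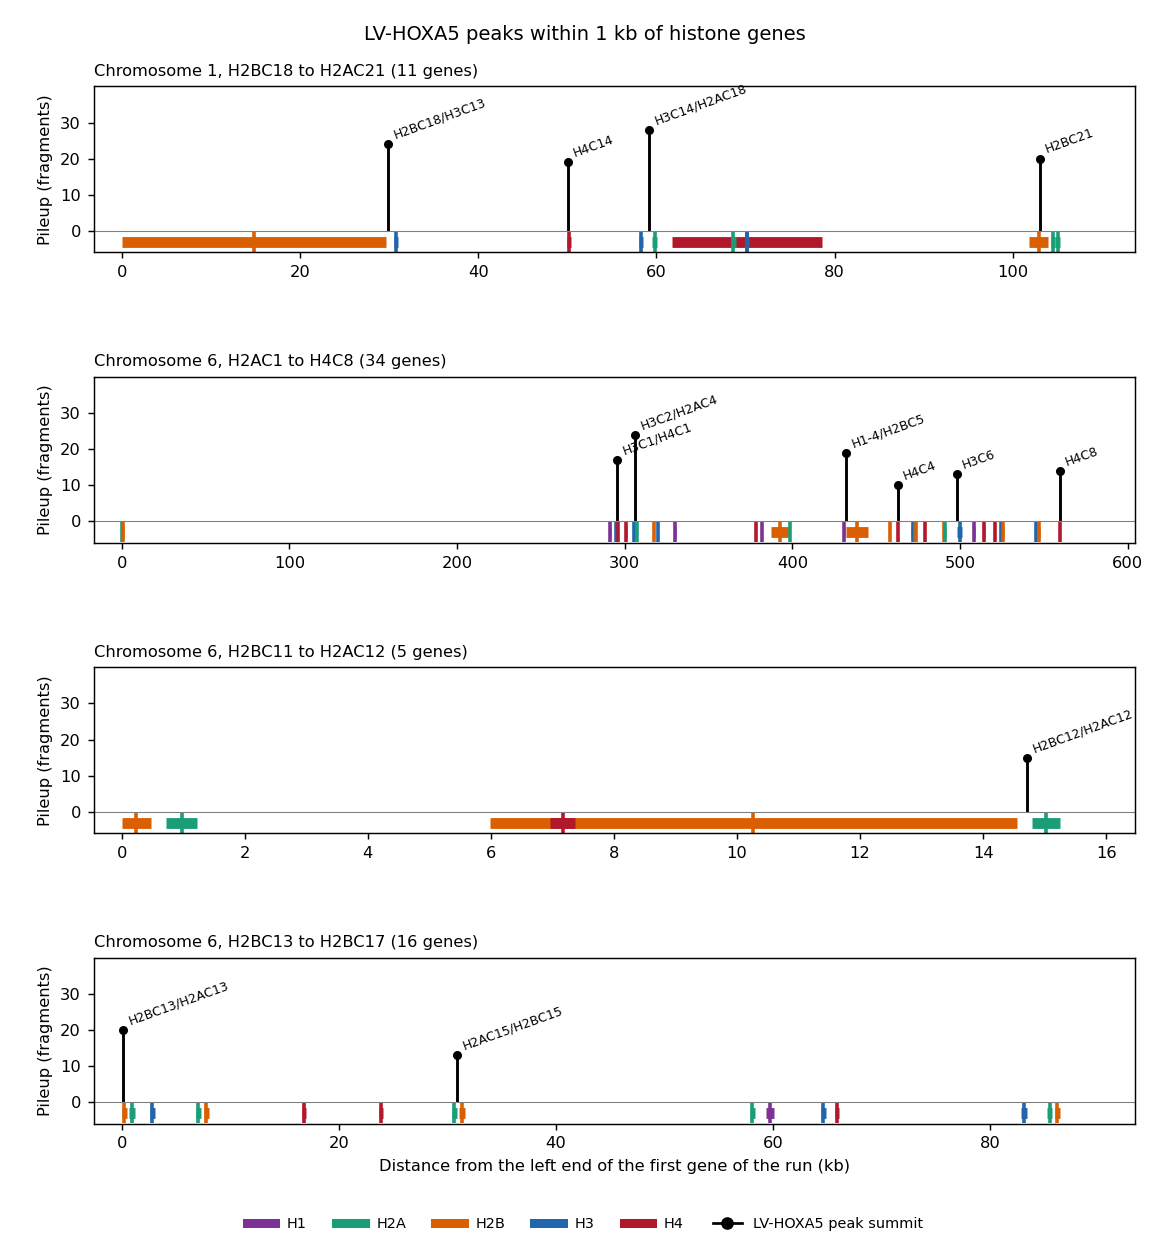
Pileup of the 13 LV-HOXA5 peaks, in fragments, along the 4 larger groups of histone genes, with the distance in kb from the left end of the first gene on the horizontal axis. Coloured bars and ticks mark the genes by type, ticks standing at gene centres, and black pins mark peak summits labelled with the histone genes within 1 kb. Peaks stand from 10 fragments at H4C4 to 28 fragments between H3C14 and H2AC18, with stretches of histone genes without a peak between them.

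Among the H1 genes, whose products bind linker DNA, H1-4 had the only peak within 1 kb. It lay 248 bp past the downstream end of H1-4 and covered the start of its neighbour H2BC5 (chr6:26157363-26158195). Its pileup was 19 fragments (Poisson 95% counting interval 11.4 to 29.7). This was 5.01-fold over a local background of 2.99 fragments, with a −log10 q-value of 6.44. When only the starts of genes were counted, no H1 gene had a peak, since the start of H1-4 lay 1034 bp away. H1-1, H1-2, H1-3, H1-5 and H1-6 had none by either count.

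The H2A and H2B genes, which encode the dimers that flank the H3 and H4 core, were reached by 8 of the 13 peaks. The peak between H2AC15 and H2BC15 (chr6:27838109-27838767) covered both starts, which lie 194 bp apart, with 13 fragments at the summit, enriched 4.56-fold. The peak at H2BC13 (chr6:27807360-27808078) covered that whole gene, with 20 fragments enriched 4.44-fold, and ended 95 bp from the start of H2AC13. At H2BC12 and H2AC12 (chr6:27146510-27147286) the pileup was 15 fragments and the fold enrichment 3.93. On chromosome 1, the peak over the start of H2BC18 (chr1:149812024-149812823) had 24 fragments, a 4.63-fold enrichment and, at 7.19, the highest −log10 q-value of the 13. It lay 402 bp from the downstream end of H3C13. The peak inside H2BC21 (chr1:149885534-149885910), with 20 fragments enriched 3.64-fold, lay 772 bp from the start of that gene and was the farthest counted. H2AC20, whose start faces that of H2BC21, lay 1008 bp from the same peak and was the nearest gene not counted. Among 11 H2A and H2B pairs with known strands and starts facing away from each other at 194 to 248 bp, 2 had a peak over the stretch between the starts, those of H2AC15 with H2BC15 and of H2BC13 with H2AC13. The peak at H2BC12 and H2AC12 also spanned the stretch between these genes, a pair not counted among the 11, for which both strands were needed.

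The H3 and H4 genes encode the tetramer at the centre of the nucleosome. The highest fold enrichment at any histone gene, 5.21, was that of the peak over the start of H3C6 (chr6:26223829-26224192), where 13 fragments (counting interval 6.92 to 22.2) stood over a local background of 1.69. Even so, 3073 of the 8043 LV-HOXA5 peaks had a higher one. The peak 48 bp before the start of H3C2 (chr6:26032147-26032537) had 24 fragments enriched 4.12-fold, and lay 555 bp past the downstream end of H2AC4. H3C1 and H4C1 shared a peak (chr6:26021216-26021537) of 17 fragments, enriched 3.73-fold. The peak over the start of H4C8 (chr6:26285464-26285869), with 14 fragments and a 3.97-fold enrichment, also lay within 1 kb of the transfer RNA gene TRX-CAT1-2 and covered an end of the non-coding gene LOC124901287. The weakest was that inside H4C4 (chr6:26188746-26189049), with 10 fragments (counting interval 4.80 to 18.4), a 3.83-fold enrichment and a −log10 q-value of 2.26. The highest pileup, 28 fragments (counting interval 18.6 to 40.5), lay between H3C14 and H2AC18 (chr1:149841673-149842087), where the fold enrichment was 3.68 over a local background of 6.89. This peak was also within 1 kb of the pseudogene H2BC19P, as that at H2BC13 was of H4C10P and that at H2BC12 of MIR3143. The lowest fold enrichment, 3.59, was that at H4C14 (chr1:149832607-149832926), with 19 fragments at the summit.

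Across the 13 peaks, the median pileup was 19 fragments (range 10 to 28), against 17 for all LV-HOXA5 peaks and 17 for the 2113 peaks within 1 kb of a protein-coding gene end. The median fold enrichment was 3.97 (range 3.59 to 5.21), against 4.82 and 4.87, and 11 of the 13 lay below the median of the list, all but those at H3C6 and at H1-4 and H2BC5. The local background, the level within 10 kb of the peak recovered from the pileup and the fold, had a median of 3.73 fragments (range 1.69 to 6.89), against 2.55 and 2.60, and was above the median of the list in 10 of the 13. The peaks at histone genes thus had pileups like those of the list over a higher local background. On chromosome 1 the local background was 4.41 to 6.89 fragments over 4 peaks and on chromosome 6 it was 1.69 to 5.07 over 9. The respective median fold enrichments were 3.66 and 4.12. The median −log10 q-value was 4.04 at histone genes and 5.57 in the list.

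**Figure D3:**
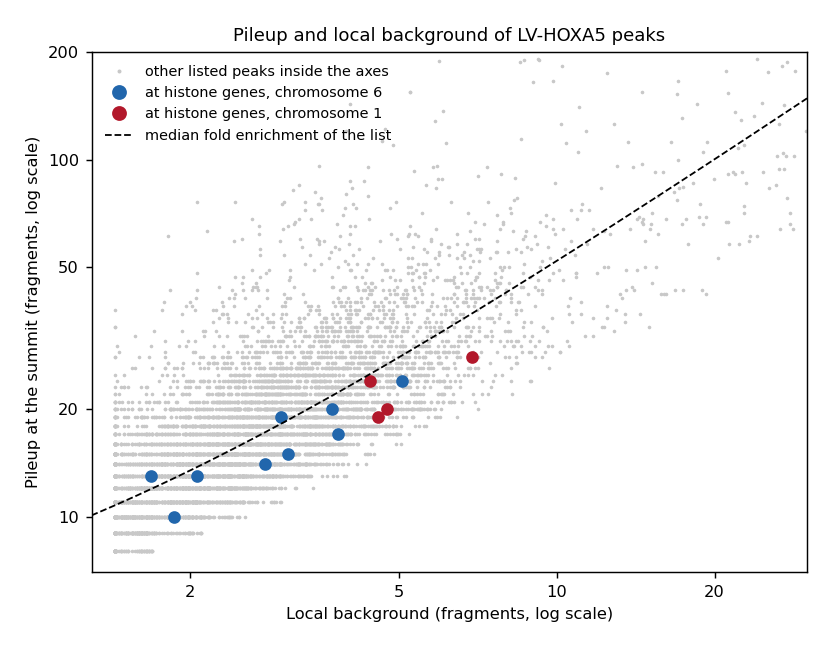
Pileup at the summit against local background, both in fragments on log scales, for the 9 peaks at histone genes on chromosome 6 (blue), the 4 on chromosome 1 (red) and the other LV-HOXA5 peaks within the axes (grey). The dashed line is the median fold enrichment of the list, 4.82, and 11 of the 13 coloured points lie below it.

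In 19 of the 21 histone genes with a peak, the RefSeq promoter table gave the strand. The peak lay nearer to the start in 12 of them and nearer to the downstream end in 6, and it covered both ends of H2BC13. The summit lay upstream of the start in 10 genes, and in 8 of these within 300 bp of it, from 30 bp at H2AC15 to 270 bp at H2BC5. At H3C13, H2AC18, H3C1, H2AC4 and H1-4 the summit lay 906 to 1522 bp past the start, beyond the downstream end of the gene, and each of these peaks also lay within 1 kb of a second histone gene. A window from 250 bp before to 50 bp after the start shared at least 1 bp with a peak in 11 of 64 histone genes (17.2%), against 12.6% of 15842 protein-coding genes. In LV-HOXA5-NC it did so in none of the histone genes and in 0.0316% of the protein-coding genes. A gene was counted if any of its listed windows met a peak. With this narrow window, the histone genes were nearer to the background than within 1 kb of gene ends. Within 1 kb of a start, the shares were 26.6% of 64 histone genes and 14.1% of 15842 protein-coding genes.

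**Figure D4:**
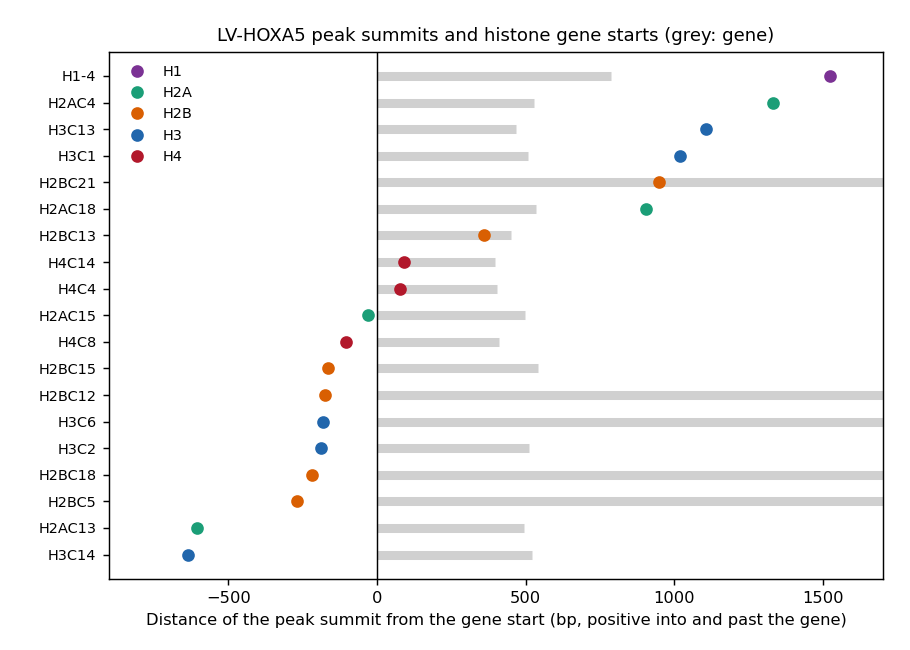
Distance in bp of the peak summit from the gene start, positive in the direction of transcription, for the 19 histone genes with an peak in LV-HOXA5 and a known strand. Points are coloured by histone type and grey bars are the genes, cut at the edge of the plot where longer. The summits of 10 genes lie before the start.

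The other 48 histone genes had none within that distance in LV-HOXA5. They were 5 H1, 12 H2A, 12 H2B, 8 H3 and 11 H4 genes, at a median of 13.2 kb from the nearest peak and up to 295 kb, the distance of H2AC1. Between 1 and 3 kb from a peak lay H2AC20, H2AC21, H3C10 and H4C15, and 30 genes lay over 10 kb away. For H4C15 this holds for the downstream end, and its start lay 19153 bp from that peak.

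Some promoter windows were identical or nearly so. Within shifts of up to 20 bases, the promoter windows of H2AC18 and H2AC19, of H3C14 and H3C15, and of H4C14 and H4C15 on chromosome 1 were 100% identical over 296 to 300 bases, and those of H4C11 and H4C12 on chromosome 6 were 98.3% identical. In each of the chromosome 1 pairs the first gene had a peak within 1 kb and the second had none. H3C14 and H2AC18 shared 1 peak, which lay outside both windows, so the sequence under it was not compared. The peak at H4C14 overlapped its window in part. How reads that fit several copies were placed is not given in the sources used here. Where copies match under a peak, which of them it belongs to is uncertain. H3C4 and H2AC7 share 1 start and were counted as 2 genes without a peak. The median identity over all pairs of histone promoters was 31.4%.

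The promoter windows of the histone genes were poor in G and C, with a median of 43.2% against 62.7% over 15842 protein-coding genes, and the windows of genes with and without a peak had medians of 43.0% and 43.3%. The sequence TATAAA, that of the TATA box, was present in 42 of 64 windows (65.6%, against 9.75% of all). It was found in 14 of the 19 with a peak and 28 of the 45 without. The sequence CCAAT was present in 54 (84.4%, against 36.4%), in all 51 windows of H1, H2A, H2B and H3 genes and in 3 of 13 H4 windows. The octamer ATTTGCAT, known from H2B promoters as a site of OCT1, was present in 26 (40.6%, against 1.72%). It was found in 14 of 18 H2B and 11 of 16 H2A windows, in 4 of the 19 windows of genes with a peak and in 22 of the 45 without. The windows of H2A and H2B genes that face away from each other overlap, and H3C4 and H2AC7 have the same window. In these counts 1 site can therefore stand for more than 1 gene. The short homeodomain core TAAT, which also lies within TAATTA, was present in 18 of the 19 windows with a peak and in 39 of the 45 without. Over all protein-coding windows the share was 42.3%. None of these motif shares was adjusted for the lower G and C content of the histone windows, so no excess of sites is claimed. The longer TAATTA was present in 2 of 19 and 2 of 45, against 3.36% of all. Those with a peak were H2BC13 and H2AC13, whose windows overlap and hold the same site under the same peak. In the upstream stretches printed above, TAATTA occurs at H2BC13 alone, the octamer at H2BC18 and H2BC12, and TATAAA at H3C6, H2BC5, H2BC13, H3C2 and H2BC12. CCAAT is present in all of them but those of H4C8 and H4C14, and H4C14 holds none of the motifs. All were searched on both strands and at any position in the window, so a match need not be a working site. The differences were not tested.

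No LV-HOXA5-NC peak lay within 1 kb of a histone gene, 0 of 69, which allows a share of up to 4.35% by a count of 3 and up to 5.21% by the exact interval. Over all protein-coding genes the share in this list was 0.135%. The nearest control peaks were 3.09 Mb away on chromosome 6 and 3.37 Mb away on chromosome 1. The control library had 12.4% of the fragments of LV-HOXA5. At that depth the pileups of the 13 peaks correspond to 1.24 to 3.46 fragments, and the lowest pileup in the control list was 4 fragments. A signal of the same density was therefore below what was listed in the control cells, and a difference between the conditions at histone genes was not detectable at this depth.

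Transfer RNA genes lie among the histone genes of chromosome 6. From 25.7 to 27.9 Mb, LV-HOXA5 had 25 peaks, of which 9 lay within 1 kb of a histone gene, 13 within 1 kb of a transfer RNA gene, 1 of these (that at H4C8) near both, and 4 near neither. The peaks near transfer RNA genes alone had a median fold enrichment of 4.72, and those at histone genes 4.12.

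Genes around histone supply were listed as well. Of 11 histone variant genes, whose products are used outside replication or at special sites, 3 lay within 1 kb of a peak in LV-HOXA5 (27.3%, interval 6.02% to 61.0%, which includes the 13.0% of all protein-coding genes). At H2AZ2, a gene of the variant H2A.Z, the peak covered an end, with 25 fragments and a 5.53-fold enrichment. At CENPA, the H3 variant of centromeres, the peak lay 35 bp from the gene, with 22 fragments and a 6.0-fold enrichment. At H3-3A, a gene of the replacement histone H3.3, it lay 570 bp from the nearest end, with 10 fragments and a 3.54-fold enrichment. That peak lay inside the gene and covered a start listed there in the promoter table. No peak lay at H1-10, H2AX, H2AZ1, H2AJ, MACROH2A1, MACROH2A2, H3-3B or H3-5.

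Of 16 genes for histone transcription and mRNA processing, 7 had a peak (43.8%, interval 19.8% to 70.1%, against 13.0% of all protein-coding genes). The list was chosen with earlier results of these data known, so the difference was not tested and no excess is claimed. NPAT, the co-activator of the histone genes at S phase, had a peak 181 bp from an end, also within 1 kb of ATM, with 14 fragments and a 5.51-fold enrichment. CASP8AP2 had a peak over an end with 15 fragments and a 5.43-fold enrichment. HINFP, an activator of H4 genes, had 13 fragments and a 4.82-fold enrichment. ZNF473, SYMPK and CSTF2 act in the 3′ end processing of histone or other messenger RNAs, and their pileups were 27, 24 and 9 fragments with fold enrichments of 5.86, 4.89 and 4.10. The peak at ZNF473 was also within 1 kb of VRK3, and that at SYMPK within 1 kb of FOXA3. CDK2 encodes the kinase that phosphorylates NPAT with cyclin E. An end of CDK2 lay 803 bp from a peak of 59 fragments and an 8.88-fold enrichment. This peak was also within 1 kb of RAB5B. The RefSeq promoter table gave no start for CDK2 or ZNF473, so whether their peaks lay at the start or the downstream end was not determined. The cyclin E genes CCNE1 and CCNE2 had none. Nor did POU2F1, which encodes OCT1, the stem-loop binding protein gene SLBP, LSM10, LSM11, CPSF2, CPSF3 or ERI1.

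Of 14 histone chaperone genes, which encode proteins that escort histones to and from DNA, 4 had a peak (28.6%, interval 8.39% to 58.1%, which again includes 13.0%). NASP, a chaperone of H1 and of H3 with H4, lay 135 bp from a peak of 15 fragments, enriched 4.61-fold. ASF1B had 17 fragments and a 4.61-fold enrichment over an end. DAXX, a chaperone of H3.3, had 33 fragments and a 6.99-fold enrichment 245 bp from an end, also within 1 kb of ZBTB22. ANP32E, a chaperone of H2A.Z, had 31 fragments and a 6.99-fold enrichment over an end. For DAXX and ANP32E no start was known either, so which end lay at the peak was not determined. No peak lay at ASF1A, CHAF1A, CHAF1B, HIRA, ATRX, HAT1, RBBP4, RBBP7, SUPT16H or SSRP1. Where they had a peak, the 3 lists had median fold enrichments of 5.53, 5.43 and 5.80, against 3.97 over the 13 peaks at the replication-dependent genes. The peaks at H2AZ2, H3-3A, ASF1B and ANP32E were also within 1 kb of the non-coding genes H2AZ2-DT, H3-3A-DT and ADGRL1-AS1 and of RNU2-17P, in this order. No gene of these lists had an LV-HOXA5-NC peak within 1 kb.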

How the data were processed

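Anti-Flag CUT & Tag peaks of 1 LV-HOXA5 and 1 LV-HOXA5-NC library of TFK-1 cells were analysed. Per the file headers, duplicates had been removed and the authors ran MACS 2.2.7.1 on the fragments of 1 library at a time, in paired-end mode with no control library, keeping peaks at a q-value of 0.05. The submitters' processing notes also name fastp, Bowtie2, deepTools, ChIPseeker and GRCh38. The deposited tables give the pileup signal in fragments, which depends on depth, a fold enrichment relative to the local background, and p-values and q-values as −log10.

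The local background was computed as (pileup + 1) / fold − 1. Distances ran from the nearest peak edge to either end of each RefSeq gene. Strand and promoter windows came from a RefSeq table that held 64 of the 69 genes. Intervals are exact (Clopper-Pearson for shares, Poisson for pileups) and cover counting error only. Distances and counts were tested on simulated data. Genes named with values are those at the peaks of highest and lowest fold, next to the 1 kb limit, in the smallest groups, and the listed related genes with a peak; after the values were seen, the rest of the 13 peaks and the listed genes without a peak were added. A further gene first chosen for the variant list is not reported here, and the share is over the others. The members and lists were chosen with earlier results of these data known. Alternatives were a q-value of 0.001, the summit, 3 kb, a covered end and starts only, and, chosen after seeing the data, merged regions. Python 3.11.15, NumPy 2.4.6, SciPy 1.17.1, pandas 2.3.3 and Matplotlib 3.10.9 were used.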

Additional observations from a re-analysis of the deposited data

How the results depend on the processing

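With 14 results and 5 other settings for each, and merged regions for 2 of them, 60 values stayed within the 95% interval of the main value (within 1.5 times for the number of peaks) and 12 did not. Intervals from few genes are wide, so a value that stayed can still differ much. On chromosome 1 the share within 3 kb was 69.2%, inside the main interval of 19.2% to 74.9%. Counting only peaks that covered a gene end moved most: 14.5% of all histone genes, 14.5% on chromosome 6, 15.4% on chromosome 1, 0% of H1 and 7.69% of H3 genes had one, from 8 peaks. With starts only, 0% of H1 genes had a peak. The share over all protein-coding genes became 11.3% with a q-value of 0.001 or less, 15.0% within 3 kb, 6.69% with a covered end, 14.1% with starts only and 6.10% for merged regions. Under the same settings the share of histone genes was 29.0%, 36.2%, 14.5%, 26.6% and 27.7%. No control peak lay at a histone gene with a q-value of 0.001 or less, with the summit, within 3 kb, with a covered end or with starts only. No paired analysis was possible because each condition had 1 library. Depth limits the control list, and reads that fit several histone copies limit which gene a peak is given to.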
